A study of Mus musculus with 18 samples.

Results

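Macrophage marker genes and Pf4 were followed across mouse embryonic limb buds. The 9 genes, taken by symbol, were Csf1r, C1qa, C1qb, C1qc, Cd68, Mrc1, Tyrobp, Fcer1g and Pf4, out of 14686 genes listed over 3 tables of RNA-seq levels. Of these, 7 were among the 13540 genes of the CD1 table, 8 among the 14027 of the e11.0 table and all 9 among the 13478 of the e11.5 table. C1qa was not listed in the CD1 table, and Fcer1g was listed at e11.5 alone. The tables hold genes that exceeded 0.5 CPM (read counts scaled to a total of 1000000 over the listed genes) in at least 3 libraries, so levels of C1qa and Fcer1g elsewhere were not analysed here.

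Each of 6 groups had 3 libraries (n = 3). The groups were CD1 forelimb buds at e10.5, CD1 hindlimb buds at e11.0, and hindlimb buds from Pitx1 null embryos and their wild type counterparts, both of strain BALB/c, at e11.0 and at e11.5, where e is the embryonic day. Forelimb at e10.5 was set against hindlimb at e11.0 because the stages match in morphology, so the limb and the age of the embryo cannot be told apart. The null comparison asked which part of hindlimb expression depends on Pitx1, a homeodomain factor of the hindlimb; the labels do not give the null allele or whether embryos were pooled. Replicates 1 and 2 of every group share a sequencing run named in the titles, while replicate 3 is from another run in the e11.0 Pitx1 groups, from yet another run at e11.5, and has no run named in the CD1 groups. The e11.5 libraries were enriched for mRNA and the others depleted of ribosomal RNA, and replicate 3 at e11.5 was not stranded, so levels at different ages also differ in library type. Separate litters or pools are not named for the replicates, and the p-values therefore cover the spread between libraries alone, which may be technical.

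Libraries held 17.4 to 53.6 M reads (M, 1000000) on listed genes, and 17 to 587 reads, with a median of 79, stood behind a value of the 9 genes. Pitx1 itself was at 0.266 to 0.462 CPM in CD1 forelimb and 183 to 223 CPM in CD1 hindlimb. At e11.0 wild type hindlimb had 114 to 136 CPM and null hindlimb 19.3 to 22.9 CPM, and at e11.5 they had 319 to 364 and 72.1 to 88.6 CPM, so each library matched its label, with Pitx1 reads still present in the null. All 10 genes of a limb bud mesenchyme list were listed in every table.

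Macrophages reach the limb bud early, from precursors of the yolk sac, and they clear dying cells there as the digits take shape. Csf1r is the receptor tyrosine kinase for Csf1 and Il34, on which most tissue macrophages depend for survival. C1qa, C1qb and C1qc encode the chains of C1q, the recognition protein of the classical complement pathway, which macrophages themselves make. Tyrobp and Fcer1g are membrane adaptors with a tyrosine-based motif that carry signals of many myeloid receptors to the kinase Syk. Mrc1 is the mannose receptor, Cd68 a glycoprotein of lysosomes. Pf4 is a CXC chemokine stored in platelet granules and made in megakaryocytes, and embryonic macrophages transcribe it too. In bulk tissue, fewer cells of a type and less RNA per cell cannot be told apart.

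PU.1, encoded by Spi1, is a transcription factor of the myeloid lineage that binds a purine-rich core. The core GAGGAA was searched on both strands (reverse complement TTCCTC) in the 250 bases before the RefSeq start of each gene on GRCm38.p6. The RefSeq promoter sequences covered 6 of the 9 genes (not Csf1r, C1qa or Tyrobp). RefSeq starts can differ from the GENCODE M21 coordinates given below. For C1qc, Mrc1 and Fcer1g the searched bases reach into the GENCODE gene. The core was found for 5 of the 6, namely Pf4, C1qb, C1qc, Mrc1 and Cd68, and in 23.3% of 32851 promoters of the same length. The GATA core AGATAA (reverse complement TTATCT) was in 0 of the 6 and in 9.99% of all promoters. A match is a description of the letters, not a bound site. The promoter of Pf4 is shown because Pf4 is the member called at both Pitx1 stages. That of C1qb is shown because, of the C1q chains searched, it has the core nearest to its RefSeq start. Pf4 lies on the plus strand (window chr5:90772185-90772434) and has the core on the other strand, at 8 to 3 bases upstream. C1qb lies on the minus strand (window chr4:136886201-136886450) and has it at 30 to 25 bases upstream. Both are written 5′ to 3′ along the gene, with the core in capitals.
Pf4 promoter: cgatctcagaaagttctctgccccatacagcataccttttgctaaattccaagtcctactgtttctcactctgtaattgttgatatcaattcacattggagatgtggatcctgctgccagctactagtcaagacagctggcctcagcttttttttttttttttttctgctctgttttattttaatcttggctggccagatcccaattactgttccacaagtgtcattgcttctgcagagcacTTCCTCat
C1qb promoter: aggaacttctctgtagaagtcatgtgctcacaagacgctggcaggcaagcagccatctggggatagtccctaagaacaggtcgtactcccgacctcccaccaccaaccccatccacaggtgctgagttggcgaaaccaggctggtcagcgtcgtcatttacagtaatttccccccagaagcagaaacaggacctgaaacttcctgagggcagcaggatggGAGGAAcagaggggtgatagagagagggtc

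Csf1r (chromosome 18, 61100598 to 61132149, plus strand; GRCm38, GENCODE M21) was at 2.46, 5.67 and 3.06 CPM in replicates 1, 2 and 3 of CD1 forelimb and at 4.97, 3.43 and 2.93 CPM in CD1 hindlimb. At e11.0 it was at 3.19, 3.45 and 4.9 CPM in wild type and at 2.82, 3.3 and 3.1 CPM in null. At e11.5 it was at 8.61, 10.9 and 11 CPM in wild type and at 5.82, 7.88 and 7.95 CPM in null. Both e11.5 groups stood above all 12 libraries of the earlier stages, and the 2 genotypes overlapped at e11.0 but not at e11.5. Its locus shares 873 bases with Hmgxb3 on the opposite strand, and whether counting used strand was not given in the sources used here.

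The C1q genes lie next to each other on the minus strand of chromosome 4, C1qb at 136880129 to 136886187, C1qc at 136889804 to 136893065 and C1qa at 136895917 to 136898803, with gaps of 3.6 and 2.9 kb. C1qa was at 1.23, 1.38 and 1.28 CPM in wild type against 0.903, 1.23 and 1.31 CPM in null at e11.0, and at 1.66, 2.11 and 2.26 CPM in wild type against 1.03, 1.48 and 1.1 CPM in null at e11.5. The genotypes overlapped at e11.0, and at e11.5 every null library was below every wild type library. C1qb was at 1.19, 1.27 and 1.18 CPM in CD1 forelimb, 1.72, 1.5 and 1.39 CPM in CD1 hindlimb, 1.29, 2.07 and 1.87 CPM in wild type against 1.59, 2.07 and 2.17 CPM in null at e11.0, and 2.45, 3.43 and 3.61 CPM in wild type against 1.98, 2.67 and 2.52 CPM in null at e11.5. C1qc was at 0.808, 1.43 and 1.18 CPM in CD1 forelimb, 1.79, 2.21 and 1.57 CPM in CD1 hindlimb, 1.44, 1.96 and 1.61 CPM in wild type against 1.7, 1.87 and 1.56 CPM in null at e11.0, and 2.59, 3.08 and 3.07 CPM in wild type against 1.85, 2.67 and 1.96 CPM in null at e11.5. For both chains the CD1 groups did not overlap, with hindlimb higher, while the Pitx1 genotypes overlapped at each stage.

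Mrc1 (chromosome 2, 14229392 to 14332057, plus strand) was at 4.7, 6.33 and 5.68 CPM in CD1 forelimb, 7.33, 6.38 and 7.82 CPM in CD1 hindlimb, 6.74, 7.59 and 8.19 CPM in wild type against 6.75, 9.32 and 5.93 CPM in null at e11.0, and 8.47, 8.83 and 6.85 CPM in wild type against 8, 8.39 and 5.61 CPM in null at e11.5. Its forelimb libraries were all below the hindlimb ones, by as little as 6.33 against 6.38 CPM, and its levels at the 2 Pitx1 stages overlapped. Cd68 (chromosome 11, 69664213 to 69666153, minus strand) was at 1.5, 1.75 and 1.69 CPM in CD1 forelimb, 2.16, 1.81 and 2.5 CPM in CD1 hindlimb, 1.8, 1.9 and 2.17 CPM in wild type against 1.27, 1.33 and 2.06 CPM in null at e11.0. At e11.5 Cd68 was at 2.56, 2.52 and 4.61 CPM in wild type and at 2.18, 2.41 and 5.41 CPM in null. Replicate 3 of both e11.5 groups, the unstranded libraries, stood far above the rest, no annotated gene overlaps Cd68, and the part of the library type was not tested.

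Tyrobp (chromosome 7, 30413760 to 30417585, plus strand) was at 1.08, 0.857 and 1.04 CPM in CD1 forelimb, 0.879, 0.867 and 1.46 CPM in CD1 hindlimb, 1.13, 1.9 and 1.14 CPM in wild type against 1.7, 1.48 and 1.81 CPM in null at e11.0, and 1.32, 1.79 and 1.68 CPM in wild type against 1.36, 1.53 and 1.31 CPM in null at e11.5. Each pair of compared groups overlapped. Fcer1g (chromosome 1, 171229572 to 171234365, minus strand) was at 1.27, 1.77 and 2.01 CPM in wild type against 1.42, 1.27 and 1.62 CPM in null at e11.5, again overlapping.

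Pf4 (chromosome 5, 90772435 to 90773383, plus strand) was at 5.35, 3.22 and 5.35 CPM in CD1 forelimb and at 7.43, 5.2 and 7.82 CPM in CD1 hindlimb. At e11.0 it was at 4.88, 6.16 and 4.55 CPM in wild type and at 6.96, 7.79 and 7.97 CPM in null. At e11.5 it was at 8.36, 9.29 and 10.1 CPM in wild type and at 5.95, 6.56 and 6.42 CPM in null. Every null library was above every wild type library at e11.0, and every one was below at e11.5.

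**Figure D1:**
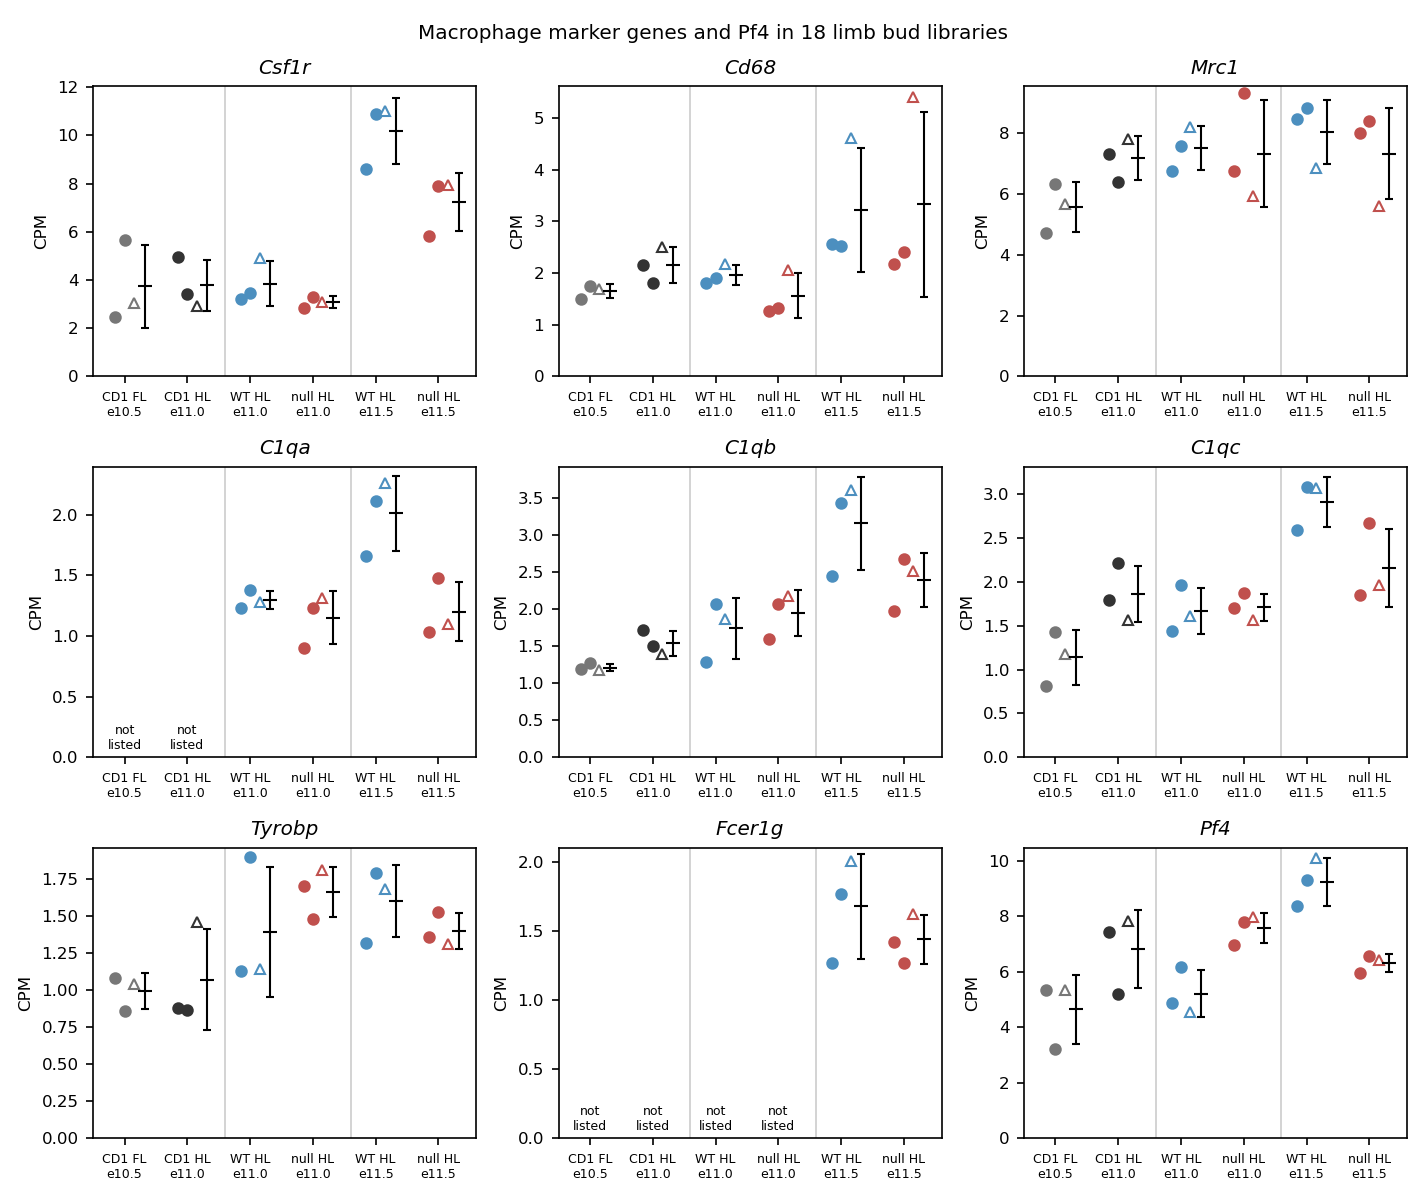
Level of each of the 9 genes in every library, in CPM, for the 6 groups in which it was listed; circles are replicates 1 and 2, open triangles replicate 3, and bars the mean ± SD (n = 3). Csf1r stands at 8.61 to 11 CPM in wild type at e11.5 against 3.19 to 4.9 CPM at e11.0, while Pf4 in null lies above wild type at e11.0 and below it at e11.5.

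The order of the groups was set across tables normalized separately. Csf1r was highest in wild type at e11.5 (10.2 ± 1.37 CPM, SD), then in null at e11.5 (7.22 ± 1.21), and these 2 groups were separate from each other and from the other 4, which ran from 3.85 ± 0.921 to 3.07 ± 0.245 CPM and overlapped. C1qb and C1qc were also highest in wild type at e11.5, at 3.16 ± 0.626 and 2.91 ± 0.28 CPM, and lowest in CD1 forelimb, at 1.21 ± 0.0471 and 1.14 ± 0.312 CPM. Only the lowest step of either order was separate. For Mrc1 the top 5 groups overlapped with their neighbours, between 8.05 ± 1.05 and 7.18 ± 0.73 CPM. CD1 forelimb had the lowest mean, at 5.57 ± 0.821 CPM. It was separate from its neighbour, CD1 hindlimb, but overlapped null at e11.0 and at e11.5. Tyrobp ran from 1.66 ± 0.169 to 0.993 ± 0.119 CPM with every neighbouring pair overlapping. For Pf4, wild type at e11.5 (9.24 ± 0.867 CPM) was separate from the next group, null at e11.0 (7.57 ± 0.54 CPM), and all further neighbours overlapped down to CD1 forelimb (4.64 ± 1.23 CPM).

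Levels of different genes were ranked per kilobase of annotated exon. The sums and ratios of genes given further on used CPM without scaling to length, so genes with more annotated exon weigh more in them. In wild type at e11.5 Pf4 was at 12.8 ± 1.2 CPM per kb (SD), C1qb at 2.91 ± 0.575 and Cd68 at 2.57 ± 0.952 CPM per kb. Mrc1, the lowest, was at 1.26 ± 0.166 CPM per kb. Pf4 was highest of the listed genes in all 6 groups and separate from the next gene in each.

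The 6 macrophage genes listed in every table (Csf1r, C1qb, C1qc, Cd68, Mrc1 and Tyrobp) summed to 14.3 ± 2.81 CPM in CD1 forelimb and 17.6 ± 1.33 CPM in CD1 hindlimb. They summed to 18.1 ± 2.25 CPM in wild type against 17.3 ± 1.86 CPM in null at e11.0, and to 29.1 ± 2.73 and 23.8 ± 2.32 CPM at e11.5. Csf1r and Mrc1, which have the most reads of the 6, did not keep one proportion. The ratio of Csf1r to Mrc1 was 0.509 ± 0.0781 in wild type at e11.0 and 1.29 ± 0.301 at e11.5, and in null 0.432 ± 0.0851 and 1.03 ± 0.352. The library type changes with the stage in this ratio, and its part was not tested.

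Pf4 set against the same sum was 0.314, 0.326 and 0.229 in wild type and 0.44, 0.402 and 0.479 in null at e11.0. At e11.5 it was 0.321, 0.304 and 0.327 in wild type and 0.281, 0.257 and 0.259 in null. The genotypes did not overlap at either stage, with null higher at e11.0 and lower at e11.5, so Pf4 differed by more than this sum did in both. At e11.5 this does not hold against every macrophage gene. The mean of C1qa, which is outside the sum, changed by -40.2%, that of Pf4 by -31.7% and that of Csf1r by -29.2%. The other genes of the sum changed by -25.8% (C1qc) to 3.21% (Cd68). In CD1 the ratio was 0.456, 0.186 and 0.387 in forelimb and 0.394, 0.321 and 0.442 in hindlimb, overlapping.

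**Figure D2:**
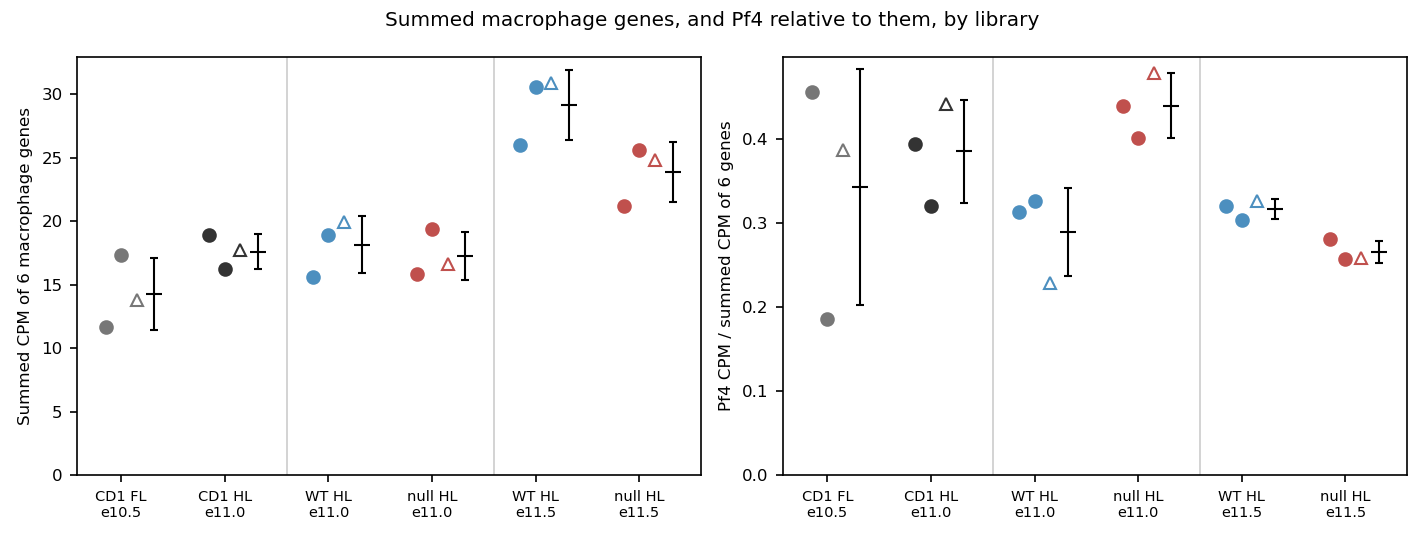
Summed CPM of the 6 macrophage genes listed in every table, and Pf4 CPM divided by that sum, for every library of the 6 groups; circles are replicates 1 and 2, open triangles replicate 3, bars the mean ± SD (n = 3). The sums are highest in wild type at e11.5, at 29.1 ± 2.73 CPM, and the ratio is highest in null at e11.0, at 0.44 ± 0.0384.

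Each comparison was tested with limma on log2(CPM + 1) with terms for group and run, adjusted by Benjamini-Hochberg over all listed genes, and a gene is called where its adjusted p is below 0.05. Log2 fold changes are on this scale, which understates changes of low genes, with their standard error (SE).

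In the CD1 comparison Pf4 had a log2 fold change of 0.48 ± 0.16 (SE) for hindlimb against forelimb (limma adjusted p = 0.118), C1qc 0.42 ± 0.14 (0.12) and Mrc1 0.32 ± 0.11 (0.131). None of the 7 listed genes was called, where 5.87% of all genes were called in either direction and 2.41% higher in hindlimb; the 3 just named had an unadjusted p below 0.05. The authors' deposited table has the same 3 genes past that threshold, with adjusted p of 0.0241 for Pf4, 0.044 for C1qc and 0.0461 for Mrc1, where it has 4.75% of all genes past it and higher in hindlimb. C1qb, C1qc, Cd68 and Mrc1 were higher in every hindlimb library than in every forelimb library, 4 of 7 where 5.87% of all genes were. C1qb had 0.20 ± 0.11 (adjusted p = 0.325) and Cd68 0.25 ± 0.11 (0.232), while Csf1r at 0.05 ± 0.21 (0.919) and Tyrobp at 0.04 ± 0.12 (0.869) were near 0. The log2 fold change was above 0 for 7 of 7, as for 51.8% of all genes. Pf4 passed with the replicate number as a block (limma adjusted p = 0.0201) or without forelimb replicate 1 (limma adjusted p = 0.00504). It did not pass when any other single library was left out (limma adjusted p = 0.108 to 0.425) or with replicates 1 and 2 alone (0.265). Replicates 1 and 2 of the CD1 groups were no more alike by number than when crossed, so the block had no clear basis for them. Mrc1 passed without forelimb replicate 2 (limma adjusted p = 0.0493), and not when any other single library was left out (0.195 to 0.411).

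At e11.0 Pf4 was higher in null hindlimb, with a log2 fold change of 0.48 ± 0.12 (SE; limma adjusted p = 0.0348), in 3 of 3 null libraries against every wild type library. It was the 1 gene of 8 that was called, where 4.73% of all genes were called higher, 8.41% lower and 13.1% in either direction. The authors' deposited table gives it 0.65 with an adjusted p of 0.000632, and has 12.2% of all genes past the threshold and higher. The difference was 0.37 within the run of replicates 1 and 2 and 0.69 between the replicate 3 libraries. The call did not hold without wild type replicate 1 (limma adjusted p = 0.168), wild type replicate 3 (0.192), null replicate 2 (0.12) or null replicate 3 (0.197), and it was lost with neither a run term nor a block (0.474). With the replicate number as a block in place of the run term it held (limma adjusted p = 0.0159).

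None of the 7 macrophage genes listed at e11.0 was called. Csf1r had a log2 fold change of -0.24 ± 0.13 for null against wild type (limma adjusted p = 0.213), Cd68 -0.22 ± 0.12 (0.218) and C1qa -0.10 ± 0.13 (0.597). Tyrobp had 0.17 ± 0.15 (0.439), C1qb 0.11 ± 0.14 (0.607), C1qc 0.03 ± 0.13 (0.9) and Mrc1 -0.05 ± 0.15 (0.84). For these 7 the genotypes overlapped, and Pf4, the remaining gene, had no overlap, where 4.78% of all genes did so with null higher.

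At e11.5 Pf4 was lower in null hindlimb, with a log2 fold change of -0.48 ± 0.08 (SE; limma adjusted p = 0.00975), as were Csf1r (-0.45 ± 0.12, adjusted p = 0.0456) and C1qa (-0.45 ± 0.12, 0.0496). These were 3 of 9 genes called lower, where 7.96% of all genes were, and none was called higher, where 2.83% were, or 10.8% in either direction. The same 3 genes were those without overlap between genotypes, where 16.5% of all genes had none in either direction. In the authors' deposited table the adjusted p was 5e-05 for Pf4, 0.00451 for Csf1r and 0.00409 for C1qa, where 10.9% of all genes were past it and lower. Within the run of replicates 1 and 2 the difference was -0.44 for Pf4 and -0.46 for Csf1r, and between the replicate 3 libraries it was -0.58 and -0.43.

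The Pf4 call at e11.5 was lost without wild type replicate 3 (limma adjusted p = 0.0634) or null replicate 3 (0.0598). The other 2 calls lay close to the threshold. Csf1r kept its call without wild type replicate 1 (limma adjusted p = 0.047) and lost it without any of the other 5 libraries (0.0627 to 0.155). C1qa likewise kept it without wild type replicate 1 (limma adjusted p = 0.0496) and lost it without any of the other 5 (0.0581 to 0.275), and no call held with neither a run term nor a block (0.239 to 0.485). With the replicate block in place of the run term all 3 held (limma adjusted p = 0.0115 for Pf4, 0.0123 for Csf1r and 0.0362 for C1qa).

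C1qc had a log2 fold change of -0.31 ± 0.12 (limma adjusted p = 0.125) and C1qb -0.29 ± 0.13 (0.163), so the C1q chains were all lower on average and 1 of the 3 passed. Mrc1 had -0.13 ± 0.08 (0.314), Fcer1g -0.13 ± 0.11 (0.458), Tyrobp -0.11 ± 0.11 (0.532) and Cd68 -0.01 ± 0.10 (0.978). All 9 log2 fold changes were below 0, where 55.9% of all genes were, but that of Cd68 turned above 0 under trimmed-mean and median-ratio scaling (0.02 in both) and in the authors' deposited table (0.06).

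**Figure D3:**
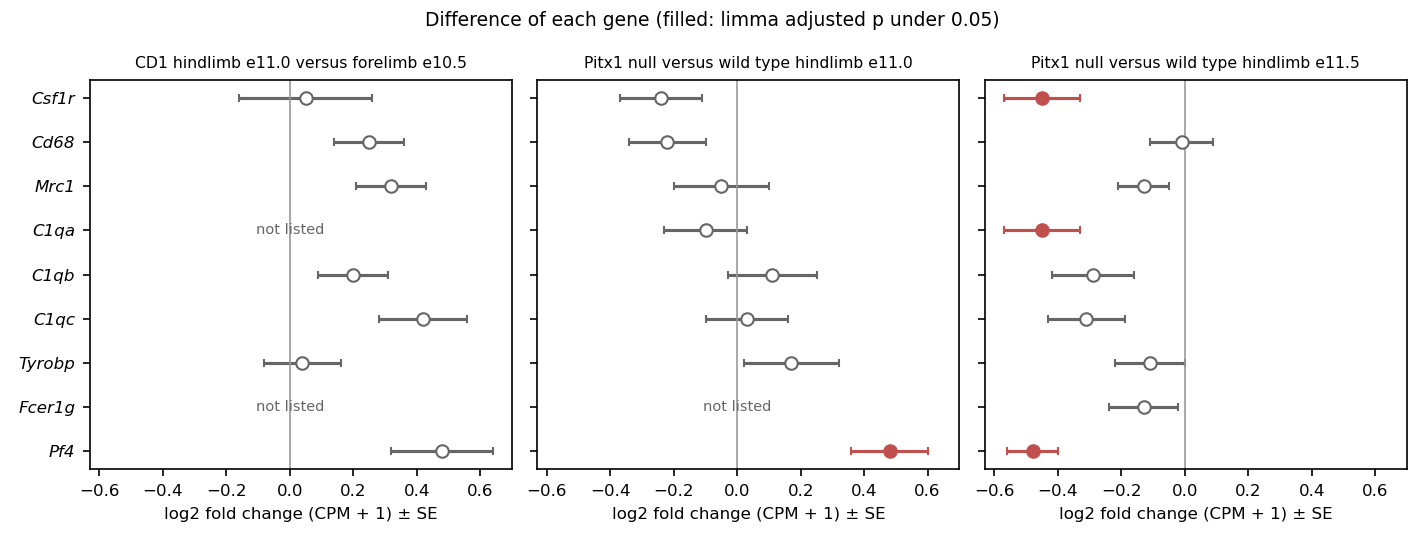
Log2 fold change on the log2(CPM + 1) scale of each listed gene in the 3 comparisons, second group minus first, with bars for the SE (n = 3 per group) and filled points where the limma adjusted p is below 0.05. Pf4 is at 0.48 in CD1 and at e11.0 and at -0.48 at e11.5, and Csf1r and C1qa are at -0.45 at e11.5.

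Of 35 other genes of macrophages, 25 were listed at e11.5, and 3 were called lower in null (background 7.96%) and none higher. These were Dab2, an endocytic adaptor (73.2 ± 3.37 CPM in wild type and 51.6 ± 2.51 in null, limma adjusted p = 0.00123), Maf, a transcription factor (10.7 ± 0.911 and 6.48 ± 2.03, 0.00789), and Cd83, a surface glycoprotein (5.05 ± 0.244 and 3.12 ± 0.561, 0.0151). All 3 are also transcribed outside macrophages. The log2 fold change was below 0 for 25 of 25, with a median of -0.19 against -0.02 over all genes. Cx3cr1, the fractalkine receptor, was at 8 ± 0.996 CPM in wild type against 6.33 ± 0.883 CPM in null (limma adjusted p = 0.124). Spi1 was at 1.56 ± 0.331 and 1.26 ± 0.344 CPM (0.344), Adgre1, which encodes F4/80, at 1.12 ± 0.346 and 0.944 ± 0.174 CPM (0.612), and Ptprc, the pan-leukocyte CD45, at 2.26 ± 0.375 and 1.96 ± 0.565 CPM (0.456).

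At e11.0, 22 of the 35 were listed and 2 were called lower (background 8.41%), Lcp1, an actin bundler of leukocytes (19.9 ± 2.59 CPM in wild type and 13.7 ± 2.3 in null, limma adjusted p = 0.0152), and Laptm5, a lysosomal protein of blood cells (2.63 ± 0.498 and 1.65 ± 0.3, 0.0435). The list's median log2 fold change was -0.09 against -0.07 over all genes. Cx3cr1 (-0.18 ± 0.14, adjusted p = 0.353) and Ptprc (-0.00 ± 0.12, 0.999) were not called. In CD1, 20 were listed, with 2 called higher (background 2.41%) and 2 lower (background 3.46%). Coro1a (12.4 ± 0.351 CPM in forelimb and 17.9 ± 1.62 in hindlimb, limma adjusted p = 0.00607) and Cd83 (3.97 ± 0.892 and 5.98 ± 0.32, 0.023) were higher in hindlimb, and Cd36 (1.79 ± 0.202 and 0.927 ± 0.256, 0.0433) and Apoe (20.7 ± 0.56 and 17 ± 0.971, 0.0438) were lower. Cx3cr1 had 0.28 ± 0.19 (adjusted p = 0.429) and Ptprc -0.03 ± 0.11 (0.918). Adgre1 and Spi1 were not listed in the CD1 and e11.0 tables, and Aif1 in none of the 3.

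Of the Csf1r ligands, Csf1 was listed and Il34 was not. Csf1 was at 4.52 ± 1.38 CPM in CD1 forelimb and 5.19 ± 1.1 in CD1 hindlimb, at 3.9 ± 0.957 in wild type and 3.1 ± 0.502 in null at e11.0, and at 7.37 ± 1.11 and 5.98 ± 0.368 at e11.5. It was called in no comparison (limma adjusted p = 0.363, 0.176 and 0.104). Of 11 genes of receptors and signalling proteins set beside Tyrobp and Fcer1g, 5, 5 and 6 were listed in CD1, at e11.0 and at e11.5. Syk was higher in CD1 hindlimb (0.37 ± 0.08, limma adjusted p = 0.0259), the phospholipase Plcg2 was lower in null at e11.0 (-0.57 ± 0.15, limma adjusted p = 0.0396), and none was called at e11.5. Of 9 other complement genes, C3ar1 and Serping1 were listed and neither was called in any table. Of 9 chemokines, Cxcl12 alone was listed. This ligand of Cxcr4 was at 57.3 ± 10.4 CPM in CD1 forelimb and 89.5 ± 10 in CD1 hindlimb, at 67 ± 17.6 in wild type and 29.6 ± 4.76 in null at e11.0, and at 182 ± 22.2 and 100 ± 9.08 at e11.5, called in each (limma adjusted p = 0.000487, 0.000173 and 0.00123).

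Because platelets and megakaryocytes also make Pf4, 20 of their genes were set beside it. At e11.0, 14 were listed and none was called, with a median log2 fold change of 0.11 against -0.07 over all genes. The summed level of the list ran from 104 to 151 CPM in wild type and from 107 to 207 CPM in null. Ppbp, the platelet chemokine encoded next to Pf4, had 0.52 ± 0.19 (limma adjusted p = 0.0855), and Itga2b, the platelet integrin chain, 0.10 ± 0.19 (0.733). Itga2b was at 3.65, 5.35 and 5.46 CPM in wild type and 3.13, 4.49 and 9.38 CPM in null, so only replicate 3 was higher in null. Ppbp was at 3.5, 5.7 and 1.91 CPM in wild type and 4.73, 7.54 and 4.24 CPM in null. The genotypes overlapped, with null higher at each replicate number. At e11.5, 19 were listed and the log2 fold change was below 0 for 19 of 19, where 55.9% of all genes were, with a median of -0.16 against -0.02 over all genes. Gp1bb, a chain of the von Willebrand factor receptor, was the 1 called lower where 7.96% of all genes were (2.22 ± 0.348 CPM in wild type and 1.37 ± 0.169 in null, limma adjusted p = 0.0392). Ppbp was at 7.68 ± 1.01 and 6.96 ± 2.23 CPM (0.501), Itga2b at 9.19 ± 3.96 and 7.18 ± 1.7 CPM (0.105) and Gp9 at 1.35 ± 0.421 and 1.28 ± 0.175 CPM (0.901). The summed level at e11.5 ran from 155 to 208 CPM in wild type and from 145 to 165 CPM in null. In CD1, 13 were listed with none called, a median of 0.09, and sums of 87.3 to 129 CPM in forelimb and 85.8 to 144 CPM in hindlimb. There Ppbp had 0.43 ± 0.15 (limma adjusted p = 0.12) and Itga2b 0.38 ± 0.10 (0.0649), and Gp9 and Gp1bb were not listed in the CD1 and e11.0 tables. Thbs1 had the highest level of the list in every group and weighs most in these sums. It was at 64.7 ± 21.5 CPM in wild type and 78.1 ± 35.6 in null at e11.0, and at 82.1 ± 9.53 and 68.9 ± 5.35 at e11.5. The sums therefore say little about the low genes of the list. The list median had the sign of the Pf4 difference in each comparison, with sums that overlapped and 1 gene called in all. The part of platelets in the Pf4 differences was not tested.

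Markers of other cells moved as well. Erythroid genes, 14 of 15 listed at e11.0, were above 0 in log2 fold change for 14 of 14, where 37.7% of all genes were, with a median of 0.16 against -0.07 over all genes. They had Hbb-bs called higher in null (0.61 ± 0.16, limma adjusted p = 0.0355; background 4.73%) and sums of 4958 to 11444 CPM in wild type and 6257 to 18041 CPM in null. At e11.5 none of 14 was called and 13 of 14 were below 0, where 55.9% of all genes were, with a median of -0.13 against -0.02 and sums of 2979 to 3549 and 2705 to 3153 CPM. In CD1, 10 of 13 were above 0, with a median of 0.23, and 4 were called higher in hindlimb (background 2.41%), Hbb-bt (4.3 ± 2.82 CPM in forelimb and 13.6 ± 6.02 in hindlimb, limma adjusted p = 0.000923), Hbb-bs (log2 fold change 1.47 ± 0.20, 0.00224), Hba-a1 (0.45 ± 0.07, 0.00519) and Hbb-y (0.40 ± 0.08, 0.0224), with sums of 3844 to 3949 and 3931 to 5214 CPM. Endothelial genes, 12 of 12 listed, had 10 called lower in null at e11.0 (background 8.41%), among them Kdr (-0.66 ± 0.13, limma adjusted p = 0.0147) and Cdh5 (-0.68 ± 0.15, 0.0214), with a median of -0.41 and sums of 274 to 397 and 176 to 303 CPM. At e11.5 Cdh5 (-0.21 ± 0.05, limma adjusted p = 0.0295) and Tie1 (-0.28 ± 0.07, 0.0329) were called lower (background 7.96%), with sums of 535 to 600 and 467 to 571 CPM, and in CD1 none was. The erythroid median, like that of the platelet list, had the sign of the Pf4 difference in each comparison, and Pf4 was higher at e11.0 where 10 of 12 endothelial genes were called lower. At e11.0 null replicate 3 was the highest library for every listed erythroid gene. Replicates 1 and 2 leave 2 libraries per group, too few to tell genes apart by overlap. Within them the genotypes did not overlap for Pf4 and Hbb-bs, and overlapped for the other listed erythroid genes. Alas2, for example, was at 40.1, 57.4 and 71.9 CPM in wild type and 41.3, 42.3 and 114 CPM in null. The part of the blood or the vessels in the Pf4 differences was not tested.

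Neutrophil and mast cell genes were mostly not listed, 3 of 12 in each table. Kit was lower in null at e11.0 (-0.45 ± 0.12, limma adjusted p = 0.034; background 8.41%) and at e11.5 (-0.29 ± 0.06, 0.0253; background 7.96%), Prtn3 was lower at e11.5 (-0.45 ± 0.12, 0.0463), and none was called in CD1. Mpo, the remaining listed gene, had 0.09 ± 0.12 at e11.0 (limma adjusted p = 0.64) and -0.26 ± 0.15 at e11.5 (0.264). Their sums ran from 16.5 to 20.1 CPM in wild type and 12.5 to 15.8 CPM in null at e11.0, and from 33.6 to 36.7 and 25.9 to 28.6 CPM at e11.5. Of 8 lymphoid genes 2 were listed. Rag1 was lower in null at both stages (-0.90 ± 0.17, limma adjusted p = 0.0119, and -0.84 ± 0.12, 0.00452), Lck was higher at e11.5 (0.32 ± 0.08, 0.0389), and the defining T cell genes Cd3e and Cd3g were not listed.

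**Figure D4:**
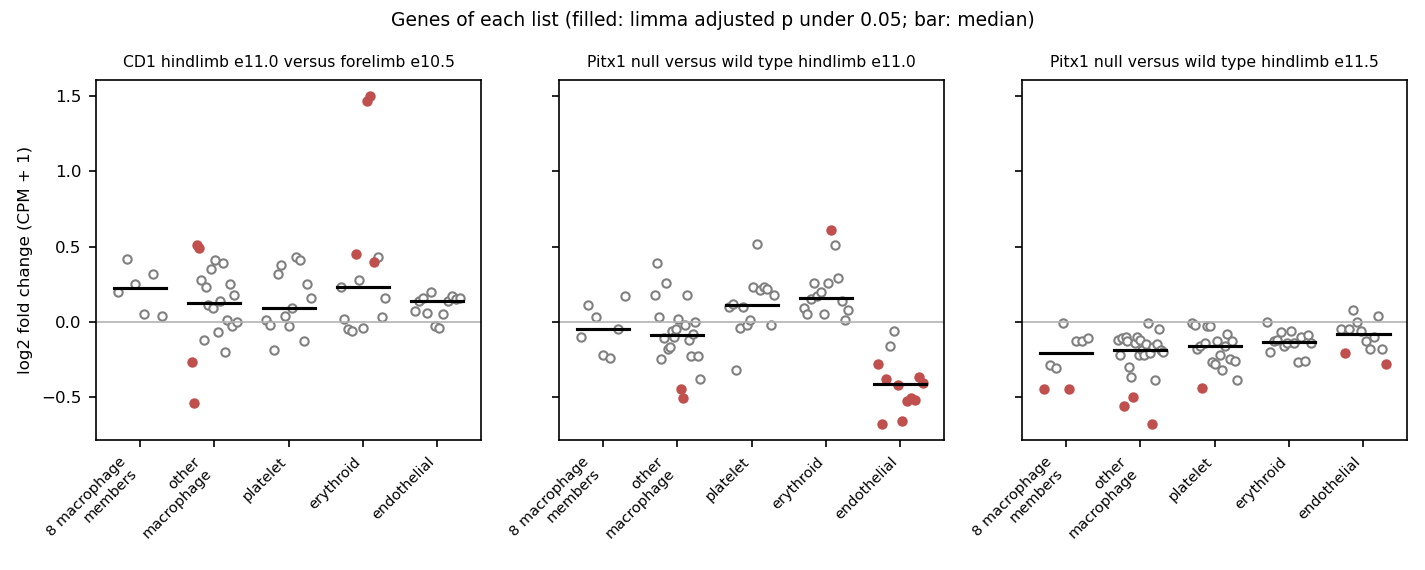
Log2 fold change on the log2(CPM + 1) scale of each listed gene of 5 lists in the 3 comparisons, second group minus first; each point is 1 gene, filled where the limma adjusted p is below 0.05, and bars are list medians. At e11.5 the lists of other macrophage genes and of platelet genes have medians of -0.19 and -0.16, and at e11.0 the endothelial list has a median of -0.41.

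To see which genes varied over the libraries like the macrophage genes, levels were centred within each table and run and compared with the mean of the 6 genes listed throughout, over 18 libraries and 12677 genes. The centring keeps the differences between compared groups. In the replicate 3 libraries, with 1 per group, it leaves nothing else. The 10 other genes with the highest Pearson r were Wdfy4 (0.91), Gm266 (0.89), Gm42928 (0.89), Cx3cr1 (0.88), Olfml2a (0.86), Acaa2 (0.86), Cryl1 (0.85), Mpeg1 (0.84), Fbxw4 (0.84) and Slc25a12 (0.83). Cx3cr1 and Mpeg1 are also on the list of other macrophage genes. The 6 genes themselves, which are part of the mean, had r of 0.89 for C1qc, 0.86 for C1qb, 0.79 for Csf1r, 0.79 for Mrc1, 0.49 for Cd68 and 0.34 for Tyrobp, and Pf4, which is not, had 0.47. The libraries share runs, groups and scaling, and these values describe likeness and test nothing.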

How the data were processed

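Per the submitters' processing notes, STAR, featureCounts and edgeR were used with GRCm38 (mm10); versions and settings are not given in the sources used here. The authors deposited, per the file headers, CPM per gene and library in 3 tables, each scaled separately, beside their own log2 fold change, average log2 CPM, likelihood-ratio score, p-value and adjusted p-value from edgeR. Every CPM value was a whole multiple of 1 read within 0.01 read, and 1 read was worth at most 0.0575 CPM; implied reads gave the depth and the reads behind a value, which cover counting error only, and were not tested.

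Because the tables hold CPM, limma 3.58.1 (R 4.3.3) was run on each one alone. The values were log2(CPM + 1), the prior followed the mean level, and the model held a group and a run term, with 3 residual degrees of freedom left. All p-values are two-sided and adjusted by Benjamini-Hochberg over the genes of a table. Symbols and coordinates came from GENCODE M21, matching 13519, 14004 and 13463 identifiers. The deviations of libraries with the same number from their group means were correlated across genes. In CD1 the values for replicates 1, 2 and 3 were 0.686, 0.798 and 0.939, at e11.0 they were 0.662, 0.637 and 0.855, and at e11.5 they were 0.733, 0.83 and 0.914. The shared run is part of these values, and the replicate block was an alternative fit. Pairs of replicate 1 with replicate 2 across the compared groups also share a run. In CD1 such crossed pairs gave 0.748 and 0.852, so replicates 1 and 2 were no more alike by number there. Crossed pairs gave 0.529 and 0.407 for the earlier Pitx1 stage and 0.632 and 0.627 for the later one, below the same-number values.

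The 9 genes and the other lists were chosen with earlier results of these data known. Named beside them were, per list, the called genes of lowest adjusted p, up to 6. Adgre1, Aif1, Cx3cr1, Spi1, Ptprc, Itga2b, Ppbp, Gp9, Gp1bb, Csf1 and Il34 were named whatever their values. Endothelial genes are given by examples. Called genes of the limb bud mesenchyme list are not named here. Likeness used 6 macrophage genes, since C1qa and Fcer1g were not in all tables. Alternatives were other scalings, pseudocounts, a filter on low values, no run term, the block, fewer libraries and the authors' deposited results. The code was tested on simulated data.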

Additional observations from a re-analysis of the deposited data

Results flagged for a closer look

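Pf4 differed between Pitx1 null and wild type hindlimb in opposite directions at the 2 stages. The log2 fold change was 0.48 at e11.0, with every null library above every wild type library, and -0.48 at e11.5, with every null library below. The 2 stages stand in separately scaled tables and differ in library type, and the difference between the stages was not tested.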

How the results depend on the processing

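The count of genes called among the 9 changed with the libraries used and where the runs were not modelled. In CD1 it was 0, and became 1 with the replicate block and 3 in the authors' deposited table, with 0 to 1 when each library was left out in turn. At e11.0 it was 1, also with the replicate block, and 0 with neither a run term nor a block or with replicates 1 and 2 alone, with 0 to 1 on leaving out libraries. At e11.5 it was 3, also with the replicate block, and 0 with neither a run term nor a block or with replicates 1 and 2 alone, with 0 to 3 on leaving out libraries. C1qa at e11.5 also crossed the threshold with a pseudocount of 0.1 (limma adjusted p = 0.0531) or 0.5 (0.0504). The cause was not tested.

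Over all genes, 795, 1843 and 1455 were called in CD1, at e11.0 and at e11.5. These counts became 13, 5 and 11 with neither a run term nor a block, 471, 199 and 483 with replicates 1 and 2 alone, and 1689, 2895 and 2644 in the authors' deposited table. Under the replicate block they were 640, 3442 and 1437, and leaving out libraries gave 394 to 1191, 116 to 5273 and 433 to 2627. At e11.0 the split was 664 higher and 1179 lower, against 1064 and 524 with trimmed-mean and 1326 and 403 with median-ratio scaling. At e11.5 it was 382 and 1073, against 691 and 917, and 743 and 919.

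Changes of direction were all in genes that were not called. Csf1r in CD1 was -0.04 in the authors' deposited table and ran from -0.24 to 0.30 on leaving out libraries. Tyrobp in CD1 was -0.07 with replicates 1 and 2 alone and ran from -0.07 to 0.12. At e11.0 C1qb ran from -0.01 to 0.24, C1qc from -0.06 to 0.10 and Mrc1 from -0.22 to 0.13, and Mrc1 was 0.01 with trimmed-mean scaling, 0.04 with median-ratio scaling and 0.13 with replicates 1 and 2 alone. Cd68 at e11.5 was 0.02 with either scaling and 0.06 in the authors' deposited table, and ran from -0.10 to 0.05. Of the single-gene values under the alternatives, 319 kept their direction and side of the threshold, 26 lost the call, 6 gained it and 21 turned. All 18 summed levels under other scalings moved by less than 1 SD. The planned count test on reads was not run: a stricter check of each CPM column against whole reads passed for some columns and not for others, although all values were whole multiples of the implied read within 0.01 read. With 3 libraries a group, 17 reads at the fewest behind a value and 3 residual degrees of freedom, small differences were not detectable here.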
